A study of Mus musculus with 4 samples.

Results

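The transcripts of 34 mitosis genes were analysed in mouse embryonic fibroblasts (MEF) with and without *Hmga2*, under control conditions and after TGFB1. The genes were listed by symbol for their known parts in the machinery of mitosis, with no threshold on a measured value, and all 34 were found among the 25909 genes to which a transcript could be assigned. They also all belonged to the 10788 genes with a mean level of at least 1 RPKM over the libraries. RPKM divides the reads on a transcript by its length and by the depth of its library, so that levels can be set side by side between genes.

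The 4 libraries were 1 each of *Hmga2*+/+ Ctrl, *Hmga2*+/+ TGFB1, *Hmga2*−/− Ctrl and *Hmga2*−/− TGFB1, and the study compared them to learn how the chromatin protein HMGA2 takes part in the transcriptional answer to TGFB1. The MEF came from C57BL/6 embryos at embryonic day 15.5 and were wild-type or knockout for *Hmga2*. All 4 cultures were starved overnight in 1% fetal calf serum and then received 10 ng/ml human recombinant TGFB1 or water for 24 h. All were immortalized with simian virus 40, whose large T antigen binds the retinoblastoma and p53 proteins that restrain the cell cycle, and how many embryos or lines stand behind each library is not given in the sources used here. Genotype and cell line therefore cannot be told apart. Since each condition is 1 library, the spread between cultures is unknown and p-values are not given. The intervals below are exact 95% intervals from the read counts of the libraries compared, and they cover counting error only.

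Mitosis is driven by CDK1 bound to cyclin A or cyclin B, which together with the Polo and Aurora kinases sets off chromosome condensation and spindle assembly. Kinetochores, built on CENPA chromatin, tie the chromosomes to microtubules, and the checkpoint kinases hold back the anaphase-promoting complex until every chromosome is attached. Most genes of this machinery are transcribed late in the cell cycle, under the MuvB core with MYBL2 and FOXM1, and are silenced in resting cells. TGFB1 is known to arrest many epithelial cells in G1, whereas its effect on the division of fibroblasts depends on the context.

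Promoters of such genes are known for the cell cycle genes homology region (CHR), to which the MuvB core binds, and for CCAAT boxes bound by NF-Y. RefSeq promoters of GRCm38.p6, running from 250 bases before to 50 bases after the start, were matched for 29 of the 34 genes, 26 of them at the same start base as the transcript measured. For *Kif2c* the matched start lay 3852 bases away, for *Mad2l1* 247 bases and for *Kif11* 21 bases. The 6 promoters below are those of the 4 genes that were lower by at least 1.5-fold after TGFB1, of *Ttk*, whose level was nearly the same in all 4 libraries, and of *Mybl2*, which had the largest positive difference. Each runs from 200 bases before to 30 bases after the start, 5′ to 3′ on the strand of the gene, with CHR and CCAAT letters of either strand in capitals.
Ccnb2 (chr9:70421525-70421754, minus strand): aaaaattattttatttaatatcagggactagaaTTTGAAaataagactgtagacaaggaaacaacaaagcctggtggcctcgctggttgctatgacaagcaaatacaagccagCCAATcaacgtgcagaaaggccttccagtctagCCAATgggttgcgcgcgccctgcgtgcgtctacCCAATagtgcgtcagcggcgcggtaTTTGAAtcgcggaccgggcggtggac
Cenpf (chr1:189688057-189688286, minus strand): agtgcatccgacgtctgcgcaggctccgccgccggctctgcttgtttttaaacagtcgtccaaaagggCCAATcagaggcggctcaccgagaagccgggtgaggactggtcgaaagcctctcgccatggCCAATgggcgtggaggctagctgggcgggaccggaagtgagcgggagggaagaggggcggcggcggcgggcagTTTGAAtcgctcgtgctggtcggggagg
Mki67 (chr7:135716350-135716579, minus strand): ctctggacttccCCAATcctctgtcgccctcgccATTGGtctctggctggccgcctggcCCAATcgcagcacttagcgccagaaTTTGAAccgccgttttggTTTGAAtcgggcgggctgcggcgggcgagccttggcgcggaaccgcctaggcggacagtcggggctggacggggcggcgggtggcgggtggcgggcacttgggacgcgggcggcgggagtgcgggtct
Nusap1 (chr2:119618098-119618327, plus strand): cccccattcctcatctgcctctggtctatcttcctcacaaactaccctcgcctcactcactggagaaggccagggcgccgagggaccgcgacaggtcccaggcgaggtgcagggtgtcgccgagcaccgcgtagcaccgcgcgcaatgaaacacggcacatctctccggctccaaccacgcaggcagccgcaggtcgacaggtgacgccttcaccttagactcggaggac
Ttk (chr9:83834489-83834718, plus strand): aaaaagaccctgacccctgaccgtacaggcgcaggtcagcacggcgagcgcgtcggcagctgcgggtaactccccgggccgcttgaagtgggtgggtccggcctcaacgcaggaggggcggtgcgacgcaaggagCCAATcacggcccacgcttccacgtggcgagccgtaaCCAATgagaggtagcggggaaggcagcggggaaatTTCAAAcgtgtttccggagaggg
Mybl2 (chr2:163054435-163054664, plus strand): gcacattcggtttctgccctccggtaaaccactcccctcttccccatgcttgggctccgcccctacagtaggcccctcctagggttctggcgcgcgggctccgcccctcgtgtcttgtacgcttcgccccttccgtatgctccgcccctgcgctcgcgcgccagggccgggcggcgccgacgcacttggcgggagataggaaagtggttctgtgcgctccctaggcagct

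The *Ccnb2* promoter held 3 CCAAT boxes on 1 strand, with first bases at −87, −54 and −21 from the start, and CHR letters at −167 and 5. In *Cenpf* the CHR lay at 3 behind CCAAT boxes at −132 and −71, and in *Ttk* at 8 behind boxes at −65 and −28. *Mki67* held its CHR letters farther upstream, at −116 and −98. The promoters of *Nusap1* and *Mybl2* held neither motif in this window, so that the 4 genes with the lower levels after TGFB1 did not share these letters, and *Ttk* held them too.

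Over the 29 promoters, 22 (75.9%) held a CHR, searched as TTTGAA or TTCGAA on both strands, compared with 13.4% of the 8320 promoters of genes with a mean of at least 1 RPKM and 19.4% of all 27025 promoters of the table. CCAAT was found in 21 (72.4%), compared with 39.5% and 37.9%. A CHR and a CCAAT box together were found in 19 (65.5%), compared with 5.77% and 7.67%, and a CHR within 50 bases of the start in 20 (69.0%), compared with 3.44% and 5.25%. A pair of CCAAT boxes on 1 strand with first bases 31 to 33 bases apart occurred in 4 promoters (13.8%, compared with 1.78% and 0.851%). The E2F core letters TTTCCCGC, TTTGGCGC, TTTCGCGC or TTTGCCGC were found only in *Cdk1* and *Ncapg* (6.9%, compared with 4.65% and 2.33%). No motif contains the letters of another. *Ccnb1*, *Mad2l1*, *Birc5*, *Cenpe*, *Nuf2*, *Nusap1* and *Mybl2* had no CHR in this window. A match is a description of the letters, and binding was not measured here. The limit of 50 bases and the spacing of CCAAT pairs were chosen after the matches were seen.

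**Figure D1:**
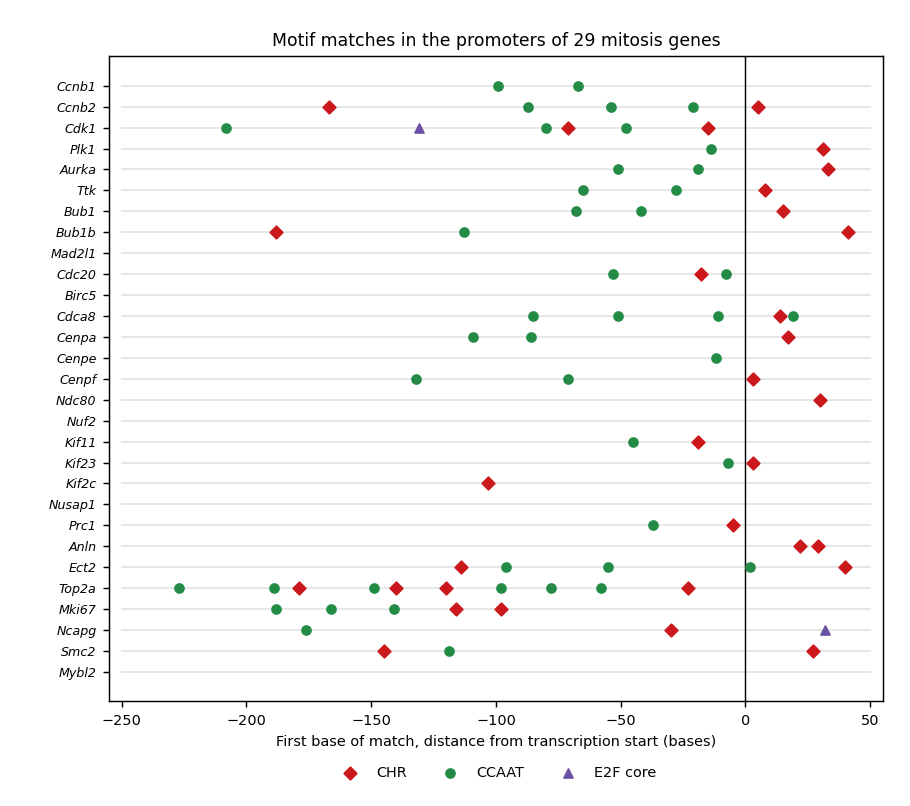
Matches of the CHR (red diamonds), CCAAT (green circles) and E2F core letters (purple triangles) in 29 promoters, 1 row per gene; the horizontal axis is the distance of the first base of the match from the transcription start in bases, with the start as a vertical line. CHR matches lie close to the start in 20 promoters, and CCAAT matches mostly upstream of them.

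The libraries were of nearly equal depth, with 56144000 to 57296000 mapped reads as derived from the steps of low RPKM values. *Hmga2*, the targeted gene, had 14.8 RPKM in *Hmga2*+/+ Ctrl, 40.7 in *Hmga2*+/+ TGFB1 and 0 reads in the *Hmga2*−/− libraries. Markers of TGFB1 treatment were higher after it in both genotypes, as *Ccn2* showed with 13.2 and 173 RPKM in *Hmga2*+/+ and 24.9 and 359 RPKM in *Hmga2*−/−, and *Smad7* with 6.40 and 10.6, and 6.67 and 14.6. All 10 fibroblast markers had a mean of at least 1 RPKM, and their summed level was 2053 to 2512 RPKM. The summed levels of 7 epithelial markers (0.463 to 1.21 RPKM), 6 haematopoietic markers (0.088 to 0.339) and 5 skeletal muscle markers (0.001 to 0.053) were near 0, with *Myod1*, *Myog*, *Myf5*, *Cd52*, *Hbb-bt* and *Hba-a1* at 0 in all 4 libraries. Of 5 endothelial markers (3.89 to 8.16) only *Kdr* and *Tek*, and of 4 neural markers (2.31 to 6.27) only *Sox2* and *Tubb3*, had a mean of at least 1 RPKM. The summed neural level was higher after TGFB1 in both genotypes (3.26 and 6.27, 2.31 and 5.92 RPKM), and its part in the results was not tested.

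The mitosis genes were well expressed in all 4 conditions. Their median level was 28.6 RPKM in *Hmga2*+/+ Ctrl, 23.1 in *Hmga2*+/+ TGFB1, 29.3 in *Hmga2*−/− Ctrl and 22.9 in *Hmga2*−/− TGFB1, whereas the median over the 10788 genes was 7.23, 7.11, 7.14 and 7.29 RPKM. The summed level was 1349.9 RPKM in *Hmga2*+/+ Ctrl and 1138 in *Hmga2*+/+ TGFB1, and 1360.0 RPKM in *Hmga2*−/− Ctrl and 1142 in *Hmga2*−/− TGFB1. The sum thus differed with TGFB1 by −15.7% in *Hmga2*+/+ and by −16.1% in *Hmga2*−/− MEF, and between the genotypes by 0.74% in Ctrl and 0.33% in TGFB1. *Mki67* and *Top2a* were the most abundant per length and *Mybl2* the least. The sums, which were not rescaled, hence weigh *Mki67* and *Top2a* most. Single genes had between 1143 and 94239 reads in a library, so that counting error was small beside the differences described for the largest of them.

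**Figure D2:**
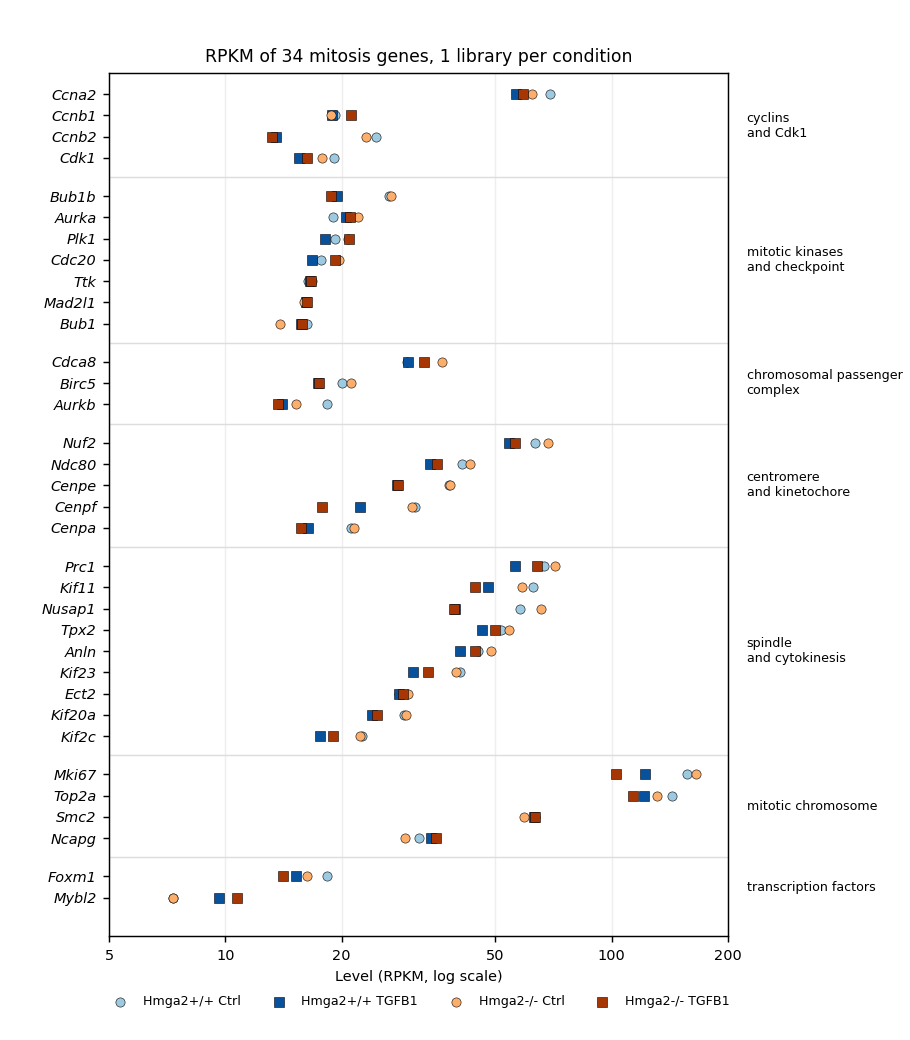
Level in RPKM (log axis) of each of the 34 genes, in rows grouped by role, with circles for Ctrl and squares for TGFB1, blue for Hmga2+/+ and orange for Hmga2-/-. In 22 genes both squares lie to the left of both circles, and in Mybl2, Ncapg and Mad2l1 they lie to the right.

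TGFB1 was accompanied by slightly lower levels of most mitosis genes in both genotypes, and few differences reached the 1.5-fold used by the study. In *Hmga2*+/+ MEF 1 of 34 genes, *Ccnb2*, was lower by at least 1.5-fold and 0 were higher, whereas 15.9% of all genes were lower and 11.6% higher. These shares of all genes depended on the scaling and were 12.8% and 14.5% with the libraries rescaled by their median ratio. In *Hmga2*−/− MEF 4 of 34, *Ccnb2*, *Cenpf*, *Nusap1* and *Mki67*, were lower by at least 1.5-fold and 0 were higher, whereas 14.2% of all genes were lower and 13.4% higher. The share of mitosis genes past 1.5-fold was thus below that of all genes in *Hmga2*+/+ MEF, and near it for lower levels in *Hmga2*−/− MEF.

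The direction was more common than the size. A log2 difference below 0 was found in 28 of 34 genes (82.4%) in *Hmga2*+/+ and in 27 of 34 (79.4%) in *Hmga2*−/− MEF, compared with 53.5% and 48.6% of all genes, and after rescaling in 22 and 24 genes, compared with 45.4% and 44.4%. The median log2 difference was −0.25 in *Hmga2*+/+ and −0.16 in *Hmga2*−/− MEF, beside −0.04 and 0.02 over all genes, and stayed below 0 after rescaling at −0.15 and −0.10. The genes lay close together: the interquartile range of their log2 difference was 0.34 and 0.24, compared with 0.66 and 0.67 over all genes. Lists described further below were also close, with 0.40 and 0.32 in 77 other mitosis genes. In 33 genes of the G1-S step and of DNA replication it was 0.33 and 0.28. Both TGFB1 libraries lay below both Ctrl libraries in 22 of 34 genes, compared with 38.8% of all genes, and above both in 3 (*Mad2l1*, *Ncapg* and *Mybl2*), compared with 37%. The counting interval, without rescaling, lay below 0 in these 22 genes in each genotype, and in *Hmga2*−/− also for *Cdca8* and *Ect2*. The value of *Ect2* lay above 0 after rescaling, and the share of all genes with such intervals is not given here. In RNA from whole cultures, fewer dividing cells and less RNA of these genes per cell cannot be told apart.

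**Figure D3:**
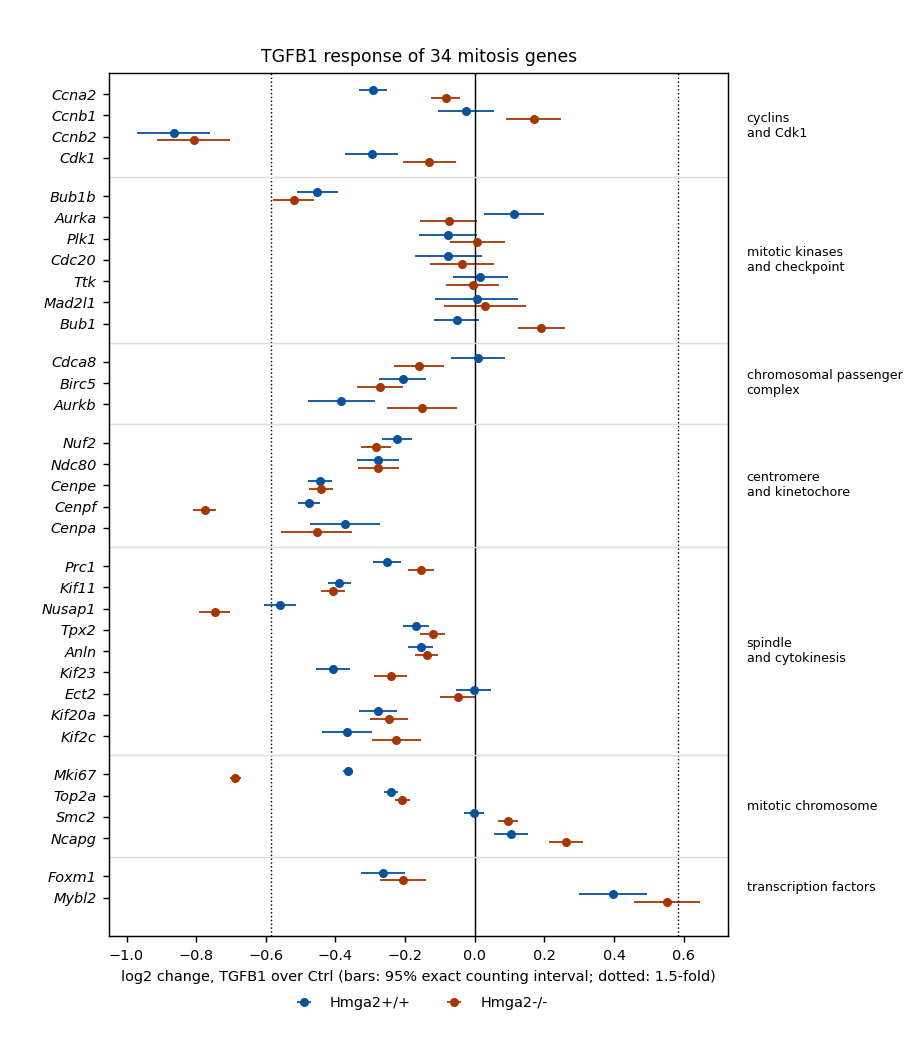
log2 difference of TGFB1 over Ctrl (horizontal axis) for each gene in Hmga2+/+ (blue) and Hmga2-/- (red-brown) MEF, grouped by role; points are 1 library over 1 library, bars are exact 95% counting intervals and dotted lines mark 1.5-fold. Ccnb2 lies beyond the left dotted line in both genotypes, Cenpf, Nusap1 and Mki67 in Hmga2-/- only, and the 5 centromere and kinetochore genes lie left of 0 in both.

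Among the cyclins and *Cdk1*, *Ccnb2* stood apart. This gene of cyclin B2, at chr9:70407689-70421554 (mm10, minus strand), had 24.6 RPKM in *Hmga2*+/+ Ctrl, 13.5 in *Hmga2*+/+ TGFB1, 23.1 in *Hmga2*−/− Ctrl and 13.2 in *Hmga2*−/− TGFB1. It was 1.82-fold lower after TGFB1 in *Hmga2*+/+ (log2 −0.86, 95% interval −0.97 to −0.76) and 1.75-fold lower in *Hmga2*−/− MEF (−0.81, −0.91 to −0.70), and the Ctrl and TGFB1 levels did not overlap. The other B-type cyclin, *Ccnb1*, whose product is the main partner of CDK1 at entry into mitosis, had 19.2, 18.9, 18.8 and 21.1 RPKM in the same order, which gave log2 differences of −0.02 and 0.17. The 2 cyclin B genes thus differed in their TGFB1 values and each has 1 annotated pseudogene copy, so that a part of their reads is uncertain. *Ccna2*, the gene of the cyclin A used in S phase and early mitosis, had 69.1, 56.4, 62.3 and 58.8 RPKM (log2 −0.29 and −0.08). *Cdk1*, the kinase that these cyclins activate, had 19.1, 15.5, 17.8 and 16.2 RPKM (log2 −0.30 and −0.13). In *Ccna2* and *Cdk1* both TGFB1 libraries lay below both Ctrl libraries, and the gap was narrower in *Hmga2*−/− MEF.

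The mitotic kinases and checkpoint genes showed the smallest TGFB1 values, with a median log2 difference of −0.05 in *Hmga2*+/+ and −0.01 in *Hmga2*−/− MEF over 7 genes. *Ttk*, the checkpoint kinase MPS1, had 16.4, 16.6, 16.7 and 16.7 RPKM in *Hmga2*+/+ Ctrl, *Hmga2*+/+ TGFB1, *Hmga2*−/− Ctrl and *Hmga2*−/− TGFB1. *Mad2l1*, whose product inhibits CDC20, had 16.1, 16.1, 16.0 and 16.3 RPKM, and *Cdc20*, the activator of the anaphase-promoting complex, had 17.7, 16.8, 19.7 and 19.2 RPKM. Their counting intervals of the TGFB1 difference included 0 in both genotypes, as did those of *Plk1*, the Polo kinase, with 19.2, 18.2, 20.8 and 20.9 RPKM. The largest difference of the 7 was that of *Bub1b*, which encodes the checkpoint protein BUBR1 and had 26.5, 19.4, 26.9 and 18.7 RPKM. Its log2 difference was −0.45 (−0.51 to −0.39) in *Hmga2*+/+ and −0.52 (−0.58 to −0.46) in *Hmga2*−/− MEF. Its relative *Bub1*, a kinase of the same checkpoint, had 16.2, 15.7, 13.8 and 15.8 RPKM, and *Aurka*, the Aurora kinase of the spindle poles, had 19.0, 20.5, 22.1 and 21.0 RPKM. In *Bub1* the *Hmga2*−/− Ctrl library and in *Aurka* the *Hmga2*+/+ Ctrl library was the lowest of the 4. The counting interval lay above 0 for *Bub1* in *Hmga2*−/− (log2 0.19, 0.12 to 0.26) and for *Aurka* in *Hmga2*+/+ MEF (0.11, 0.03 to 0.20). It included 0 for *Bub1* in *Hmga2*+/+ (−0.05) and for *Aurka* in *Hmga2*−/− MEF (−0.07).

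The chromosomal passenger complex corrects wrong attachments of chromosomes. *Aurkb*, its kinase, had 18.3 RPKM in *Hmga2*+/+ Ctrl, 14.0 in *Hmga2*+/+ TGFB1, 15.2 in *Hmga2*−/− Ctrl and 13.7 in *Hmga2*−/− TGFB1 (log2 −0.38 and −0.15). *Birc5*, the gene of survivin, had 20.0, 17.4, 21.1 and 17.5 RPKM in the same order (log2 −0.21 and −0.27). *Cdca8*, the gene of borealin, had 29.5, 29.7, 36.5 and 32.6 RPKM (log2 0.01 and −0.16), and its highest value was that of the *Hmga2*−/− Ctrl library. *Aurkb*, *Birc5* and *Cdca8* hence did not share 1 order of the libraries.

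The 5 centromere and kinetochore genes had the lowest median of the groups, at −0.37 on the log2 scale in *Hmga2*+/+ and −0.44 in *Hmga2*−/− MEF. All 5 were below 0 in both genotypes, also after rescaling, on the transcript that stood for each gene. Over the 3 transcripts of *Nuf2* the log2 difference ran from −0.2233 to −0.0002 in *Hmga2*+/+ and from −0.29 to −0.14 in *Hmga2*−/− MEF. *Cenpf*, which encodes a large protein of the outer kinetochore and lies at chr1:189640614-189688086 (minus strand), had 31.0 RPKM in *Hmga2*+/+ Ctrl, 22.3 in *Hmga2*+/+ TGFB1, 30.4 in *Hmga2*−/− Ctrl and 17.7 in *Hmga2*−/− TGFB1. It was 1.39-fold lower after TGFB1 in *Hmga2*+/+ (log2 −0.48, −0.51 to −0.45) and 1.71-fold lower in *Hmga2*−/− MEF (−0.78, −0.81 to −0.74), and its shorter annotated transcript gave −0.53 and −0.80. *Cenpe*, the gene of a kinetochore motor, had 37.9, 27.9, 38.0 and 28.0 RPKM and a log2 difference of −0.44 in each genotype. *Cenpa*, the histone variant of the centromere, had 21.1, 16.3, 21.5 and 15.7 RPKM (log2 −0.37 and −0.45). *Ndc80* and *Nuf2*, whose products form the microtubule-binding arm of the kinetochore, had 40.9, 33.8, 42.8 and 35.4 RPKM and 63.4, 54.3, 68.2 and 56.1 RPKM, with log2 differences of −0.28 and −0.28 and of −0.22 and −0.28. In all 5 genes the Ctrl levels of the genotypes differed by at most 0.11 on the log2 scale, and the TGFB1 levels lay below them.

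The 9 genes of the spindle and of cytokinesis also all had log2 differences below 0 in both genotypes, except that *Ect2* lay above 0 after rescaling, and their medians were −0.28 and −0.23. *Nusap1*, which encodes a microtubule-bundling protein and lies at chr2:119618298-119650160 (plus strand), had 58.0 RPKM in *Hmga2*+/+ Ctrl, 39.4 in *Hmga2*+/+ TGFB1, 65.6 in *Hmga2*−/− Ctrl and 39.1 in *Hmga2*−/− TGFB1. It was 1.47-fold lower in *Hmga2*+/+ (log2 −0.56, −0.60 to −0.51), just inside 1.5-fold, and 1.68-fold lower in *Hmga2*−/− MEF (−0.75, −0.79 to −0.70). The TGFB1 levels of *Nusap1* were alike and its Ctrl level was the higher one in *Hmga2*−/− MEF. Among the kinesins, *Kif11*, the motor that pushes the spindle poles apart, had 62.5, 47.7, 58.6 and 44.2 RPKM (log2 −0.39 and −0.41), and *Kif23*, of the central spindle, had 40.4, 30.5, 39.6 and 33.5 RPKM (−0.41 and −0.24). *Kif2c*, a kinesin that takes microtubules apart, had 22.6, 17.5, 22.2 and 19.0 RPKM (−0.37 and −0.23), and *Kif20a*, a motor needed for cytokinesis, had 29.0, 24.0, 29.3 and 24.7 RPKM (−0.28 and −0.25). In each of these 4 kinesins both TGFB1 libraries lay below both Ctrl libraries. *Prc1*, a crosslinker of the central spindle, had 66.8, 56.1, 71.4 and 64.1 RPKM, and *Tpx2*, the activator of Aurora A on the spindle, had 51.8, 46.1, 54.1 and 49.8 RPKM. *Anln*, the gene of the contractile ring protein anillin, had 45.1, 40.5, 48.8 and 44.3 RPKM. *Ect2*, which activates RhoA for cytokinesis, had 28.2, 28.1, 29.7 and 28.7 RPKM. The log2 differences were −0.25 and −0.15 for *Prc1*, −0.17 and −0.12 for *Tpx2*, −0.16 and −0.14 for *Anln*, and 0.00 and −0.05 for *Ect2*, which was nearest to 0 in both genotypes.

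The genes of the mitotic chromosome went apart. *Mki67*, the gene of the proliferation marker Ki-67 that coats mitotic chromosomes, at chr7:135689788-135716379 (minus strand), was the most abundant of the 34 in 3 libraries, with 157 RPKM in *Hmga2*+/+ Ctrl, 122 in *Hmga2*+/+ TGFB1, 166 in *Hmga2*−/− Ctrl and 103 in *Hmga2*−/− TGFB1. It was 1.29-fold lower after TGFB1 in *Hmga2*+/+ (log2 −0.36, −0.38 to −0.35) and 1.61-fold lower in *Hmga2*−/− MEF (−0.69, −0.70 to −0.67). *Top2a*, the topoisomerase that untangles sister chromatids, had 143, 121, 131 and 114 RPKM (log2 −0.24 and −0.21). Of the condensin genes, 2 belong to the 34. *Ncapg* had 31.7, 34.1, 29.2 and 35.1 RPKM (log2 0.10 and 0.26), with both TGFB1 libraries above both Ctrl libraries, and *Smc2* had 63.2, 63.0, 59.3 and 63.3 RPKM (0.00 and 0.10). Other condensin subunits, outside the 34, were named after their values were seen. Their log2 differences were −0.59 and −0.59 for *Ncapd2*, −0.52 and −0.36 for *Ncaph* and −0.13 and −0.06 for *Smc4*. Those of *Ncapd3* were −0.04 and −0.27, and those of *Ncapg2* were 0.07 and 0.02. The subunits of condensin thus did not share 1 direction.

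The 2 transcription factors of the list lay on opposite sides of 0. *Foxm1*, an activator of genes of late G2 and mitosis, had 18.3 RPKM in *Hmga2*+/+ Ctrl, 15.2 in *Hmga2*+/+ TGFB1, 16.2 in *Hmga2*−/− Ctrl and 14.1 in *Hmga2*−/− TGFB1 (log2 −0.26 and −0.21). *Mybl2*, which encodes B-MYB of the activating MuvB complex and lies at chr2:163054635-163084687 (plus strand), had 7.32, 9.64, 7.32 and 10.7 RPKM. It was 1.32-fold higher after TGFB1 in *Hmga2*+/+ (log2 0.40, 0.30 to 0.49) and 1.47-fold higher in *Hmga2*−/− MEF (0.55, 0.46 to 0.65), the latter just inside 1.5-fold and past it after rescaling. *Mybl2* was the only one of the 34 with a difference above 0.30 in either genotype.

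Loss of *Hmga2* by itself went with small differences. In Ctrl 0 of 34 genes differed by 1.5-fold between *Hmga2*−/− and *Hmga2*+/+ MEF, while 1.93% of all genes were lower and 2.23% higher in *Hmga2*−/−. After TGFB1 0 of 34 differed by 1.5-fold, while 1.96% of all genes were lower and 3.01% higher. At such shares hardly any of 34 genes would be counted, so that these counts say little about the mitosis genes. Their median log2 difference was 0.01 in Ctrl and 0.03 in TGFB1, beside −0.02 and 0.04 over all genes. In each, 33 of 34 genes lay within 0.3 of 0, compared with 84.4% and 82.6% of all genes. The shares were similar in lists described below, at 94.8% and 93.5% of 77 other mitosis genes. Of 33 genes of the G1-S step and of DNA replication they were 100% and 97.0%. In Ctrl the values of the 34 ran from −0.27 for *Aurkb* to 0.30 for *Cdca8*, and after TGFB1 from −0.33 for *Cenpf* to 0.20 for *Plk1*.

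The TGFB1 response itself, compared between the genotypes as the log2 difference in *Hmga2*−/− minus that in *Hmga2*+/+ MEF, passed 1.5-fold for 0 of 34 genes in either direction, while 1.7% of all genes lay lower and 2.54% higher. The median was 0.03, beside 0.05 over all genes, and −0.01 after rescaling, so that its sign depended on the scaling. The counting interval, without rescaling, lay below 0 for 5 genes, above 0 for 12 and included 0 for 17. The share of all genes with such intervals is not given here, so that these counts say little about the mitosis genes. The lowest values were those of *Mki67* with −0.32 (−0.34 to −0.30), *Cenpf* with −0.30 (−0.35 to −0.25) and *Nusap1* with −0.19 (−0.25 to −0.13). The highest were those of *Bub1* with 0.24 (0.15 to 0.34), *Aurkb* with 0.23 (0.09 to 0.37) and *Ccna2* with 0.21 (0.15 to 0.27). The 4 cyclin and *Cdk1* values were all above 0, and 0.06 to 0.21 in size, which for *Ccna2* and *Cdk1* meant a difference nearer to 0 in *Hmga2*−/− MEF. The counting interval of *Ccnb2* included 0 (0.06, −0.09 to 0.21), and rescaling moved the median of all genes by −0.04. Across the 34 genes the responses of the genotypes, which share no library, had a Pearson r of 0.884, given as a description, with 0.865 over all genes.

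*Mki67* and *Cenpf* were also the longest transcripts of the 34, with 10048 and 11087 bases, and the only ones of at least 8000 bases. Over the 429 genes of this length among the 10788, the median difference of the response was −0.18, while it was 0.07 below 2000 bases, 0.07 from 2000 to 4000 bases and 0.02 from 4000 to 8000 bases. Of the 429 genes, 22.6% lay at or below the value of *Mki67* and 25.4% at or below that of *Cenpf*, compared with 5.2% and 6.07% of shorter genes. Between the genotypes the long genes had a median of 0.01 in Ctrl and of −0.17 in TGFB1. *Aspm*, a spindle pole gene of 9811 bases that is not among the 34, had −0.32, whereas *Cenpe*, with 7722 bases, had 0.00. The shorter *Cenpf* transcript, of 5058 bases, had log2 TGFB1 differences of −0.53 in *Hmga2*+/+ and −0.80 in *Hmga2*−/− MEF. Those of the longer one were −0.48 and −0.78. The length classes were chosen after these values were seen, and the part of length in the differences of *Mki67* and *Cenpf* was not tested.

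**Figure D4:**
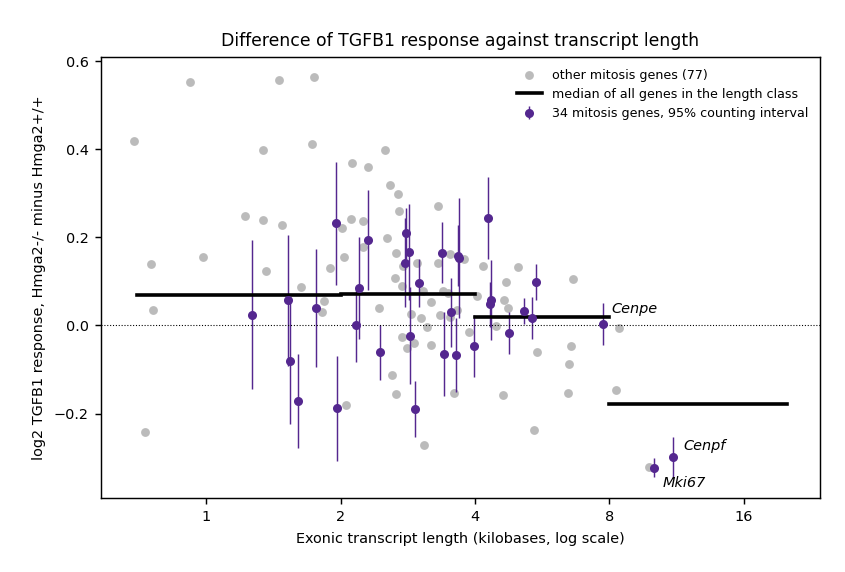
Difference of the log2 TGFB1 response, Hmga2-/- minus Hmga2+/+ (vertical axis), against exonic transcript length in kilobases (log axis), for the 34 genes (purple, with exact 95% counting intervals) and 77 other mitosis genes (grey); black bars are the medians of all genes in 4 length classes. Mki67 and Cenpf lie at −0.32 and −0.30 in the class of at least 8000 bases, whose median is −0.18.

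The other genes of the pathway were described from lists of their own. Of 77 other mitosis genes, 11 were lower by at least 1.5-fold after TGFB1 in *Hmga2*+/+ and 5 in *Hmga2*−/− MEF, and 0 were higher, beside the 15.9% and 14.2% of all genes that were lower. After rescaling 6 and 3 were lower. Their median log2 differences were −0.20 and −0.13, beside −0.25 and −0.16 for the 34. The lowest in *Hmga2*+/+ MEF were the kinetochore gene *Cenpw* (−0.86), *Pimreg* (−0.84) and *Cdca3* (−0.75), and in *Hmga2*−/− MEF *Aspm* (−0.87), *Cenpw* (−0.72) and *Sapcd2* (−0.64). With the genotypes compared in TGFB1, *Psrc1* alone passed 1.5-fold (0.69 higher in *Hmga2*−/−). Among 16 anaphase-promoting complex genes only *Anapc13* passed 1.5-fold (−1.03 and −1.08), and the medians were −0.07 and 0.04. Among 21 DREAM and E2F regulators, *Rbl2*, the gene of the repressor p130, was lower in both genotypes (−0.63 and −0.87) and *E2f4*, its usual E2F partner, was past 1.5-fold in *Hmga2*−/− MEF (0.57 and 0.68).

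Genes of the G1-S step and of DNA replication had medians nearer to 0, of −0.01 and 0.06 over 33 genes. Past 1.5-fold were *Tk1*, the thymidine kinase, with −0.66 and −0.70, and, in *Hmga2*−/− only, *Rrm2*, a subunit of ribonucleotide reductase, with 0.22 and 0.74. The G1 regulators had larger values in both directions. *Myc* had 5.17, 19.3, 7.08 and 25.2 RPKM (log2 1.90 and 1.83), and *Ccnd1*, the gene of cyclin D1, had 10.6, 6.89, 13.2 and 5.72 RPKM (−0.62 and −1.21). *Cdk6*, a kinase of the D-type cyclins, had 1.55 in *Hmga2*+/+ and 0.38 in *Hmga2*−/− MEF, and *Ccnd2* was lower in *Hmga2*−/− than in *Hmga2*+/+ by 1.02 in Ctrl and 1.15 in TGFB1 on the log2 scale. Of 9 genes listed as CDK inhibitors, a list that also held kinases that restrain CDK1, 2 were higher and 4 lower by at least 1.5-fold in each genotype. Over all genes 11.6% were higher and 15.9% lower in *Hmga2*+/+, and 13.4% and 14.2% in *Hmga2*−/− MEF. *Cdkn1a*, which encodes p21, had 6.28, 12.4, 8.63 and 20.7 RPKM (0.99 and 1.26), and *Cdkn2b*, which encodes the TGFB1-induced p15, had 14.4, 27.5, 13.6 and 29.0 RPKM (0.94 and 1.09). *Cdkn1c*, which encodes p57, had 27.4, 4.37, 20.4 and 2.88 RPKM (−2.65 and −2.83).

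**Figure D5:**
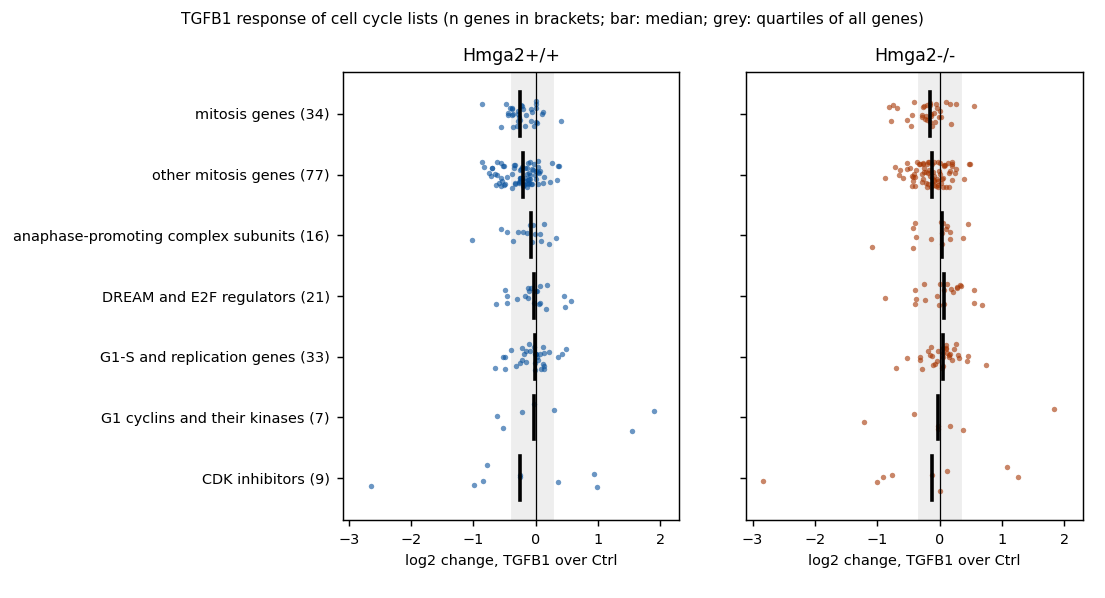
log2 difference of TGFB1 over Ctrl in Hmga2+/+ (left, blue) and Hmga2-/- (right, red-brown) for single genes (points) of 7 cell cycle lists, with the number of genes in brackets; black bars are medians and the grey band spans the quartiles of all genes. The medians of the 34 mitosis genes are −0.25 and −0.16, and the points of the CDK inhibitors and of the G1 cyclins and their kinases spread farthest.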

How the data were processed

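Total RNA of 4 cultures of immortalized MEF was prepared with a stranded kit for total RNA and sequenced as single reads of 1 end. According to the submitters' processing notes and the study's methods, the authors trimmed with Trimmomatic, mapped to mm10 with HISAT2 2.1.0, counted on UCSC known genes with HOMER, and deposited RPKM. The header of the table names exons as the counted feature and the methods name genes. The study speaks of duplicates, and whether libraries were pooled is not given in the sources used here.

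A transcript took the name of the GENCODE vM21 gene that covered 50% or more of it on its strand (57708 of 63759), and the transcript with the longest gene body stood for a gene. As in the study, values of 0 RPKM were set to 0.001 and differences of at least 1.5-fold were counted. Genes averaging 1 RPKM or more over the 4 libraries were kept. Mapped reads per library were derived as the depth at which RPKM times length gave whole reads within 0.1 (100% of 787 to 817 low values per library, on transcripts of 100 to 600 bases), and gave exact conditional intervals. No count test was run. The intervals and the derived depths were tested on simulated data. Per-sample columns not used numbered 0.

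The 34 genes, the other lists and the markers were chosen with earlier results of these data known. Named are all 34, *Hmga2*, the treatment markers (1 of which is not reported here), from every other list at most 3 genes in each direction past 1.5-fold, and *Cdkn1a*, *Cdkn2b*, *Ccnd1* and *Myc*. Python 3.11.15, numpy 2.4.6, pandas 2.3.3, scipy 1.17.1 and matplotlib 3.10.9 were used. Alternatives added 0.1 or 1 RPKM, dropped the filter, rescaled the libraries by their median ratio, took another transcript per gene, or called 2-fold. For the motifs they took a shorter window and TTTGAA alone.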

Additional observations from a re-analysis of the deposited data

Results flagged for a closer look

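In 7 of the 34 genes the log2 TGFB1 difference had opposite signs in the genotypes, a contrast that was not tested since each group is 1 library. The signs were the same in 79.4% of the 34 genes, compared with 85.1% of all genes. The value in *Hmga2*−/− minus that in *Hmga2*+/+ MEF was 0.19 for *Ccnb1*, 0.08 for *Plk1*, −0.19 for *Aurka*, −0.02 for *Ttk*, 0.24 for *Bub1*, −0.17 for *Cdca8* and 0.10 for *Smc2*. In *Plk1* and *Ttk* the counting interval of this value included 0 (−0.03 to 0.20 and −0.13 to 0.09). In each of the 7 genes at least 1 of the differences was within 0.1 of 0. The signs of *Ccnb1*, *Plk1*, *Bub1* and *Smc2* in *Hmga2*+/+ and of *Ttk* in *Hmga2*−/− MEF turn positive with the libraries rescaled.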

How the results depend on the processing

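Of 104 values of the 34 genes under other settings (counts past 1.5-fold, medians and motif counts), 100 stayed within 1.5 times the count given or moved little, and 0 turned direction among called values. With the libraries rescaled by their median ratio, the median log2 difference in *Hmga2*+/+ MEF was −0.1545, compared with −0.246, and 1 gene, *Mybl2*, was higher by at least 1.5-fold in *Hmga2*−/− MEF, compared with 0. Of all genes, 15.2% were higher in *Hmga2*−/− MEF with this rescaling. Rescaling moved the median of all genes by 0.09 in *Hmga2*+/+ and 0.05 in *Hmga2*−/− MEF. At 2-fold, 0 of the 34 genes were lower in *Hmga2*+/+ and 0 in *Hmga2*−/− MEF, compared with 1 and 4. The shares of all genes lower at 2-fold were 6.14% and 5.91%, so that counts of 0 say little. Of 480 values of the other lists 41 moved, and of 1020 values of single genes 63 moved, 51 of them with the rescaling. Other mitosis genes lower by 1.5-fold numbered 6 and 3 after rescaling and 6 and 2 with 1 RPKM added, compared with 11 and 5. The shares of all genes lower were 12.8% and 12.4% after rescaling and 10.8% and 9.67% with 1 RPKM added. Without the filter on low levels, between 8.31% and 9.43% of all genes passed 1.5-fold in a direction between the genotypes, compared with 1.93% to 3.01%.

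No paired analysis was possible because each condition has 1 library, so that the groups compared share fewer than 2 replicate numbers. Genotypes are not replicates of each other. For the same reason leaving out a library gives no value. Depth did not limit the 34 genes, each of which had at least 1143 reads in every library. Counting intervals leave out the spread between cultures.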
